A study of Homo sapiens with 12 samples.

Results

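The genes described here encode the folding machinery of the endoplasmic reticulum and the unfolded protein response that regulates it. A list of 37 genes was taken by symbol, with older symbols accepted, and each gene was read by its brightest probe set over the 12 arrays. Of the 37 genes, 33 were measured by a probe set of their own, among 11963 genes tested. DNAJB11, SYVN1 and KDELR2 have no probe set listed, and the probe set of PDIA5 is listed for several genes, so these 4 genes have no value here.

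Messenger RNA was measured on Affymetrix human expression arrays in MDA-MB-231 cells, an established human breast cancer line, after 24 h of treatment. The 4 groups were cells given 5 µM SAHA together with 2.5 mM pargyline, cells given 5 µM SAHA alone, cells given 2.5 mM pargyline alone, and cells given the vehicle DMSO. Each group held 3 arrays that the labels call biological replicates, so all results belong to 1 cell line, 1 dose of each drug and 1 time. SAHA (suberanilohydroxamic acid, vorinostat) inhibits histone deacetylases. Pargyline inhibits monoamine oxidases and has been used against the related histone demethylase LSD1.

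Proteins bound for secretion or for membranes enter the endoplasmic reticulum through the SEC61 channel, are folded there by chaperones of the Hsp70 and Hsp90 kinds, by lectin chaperones that read their sugars and by disulfide isomerases, and leave in COPII vesicles. Proteins that fail to fold are carried back to the cytosol and degraded. When unfolded proteins build up, the sensors ATF6, IRE1 (gene ERN1) and PERK (gene EIF2AK3) are released from the chaperone BiP (gene HSPA5): ATF6 and the spliced form of XBP1 raise chaperone and degradation genes, and PERK slows translation and brings up ATF4. These arrays measure messenger RNA, and the probe sets were not used to separate spliced from unspliced XBP1.

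The cis-elements of this response are known DNA words, and exact matches to them were searched for in the promoters of the list. In the RefSeq promoter table of build GRCh38.p14, 34 of the 37 genes were found (PDIA3, SEC24D and KDELR2 were not), each with the bases from 250 before to 50 after a transcription start. The endoplasmic reticulum stress element, CCAAT, then 9 bases of any kind, then CCACG, searched on both strands, was found for 6 genes of the list, XBP1, HSPA5, HSP90B1, CALR, CANX and PDIA6, for 0.0916% of all 27305 genes of the table, and in 0.0769% of its 35116 promoters, all of the same length. The 250 bases before the HSPA5 start are shown because BiP is the usual readout of this response. They lie at chr9:125241344-125241593, minus strand. The capitals mark the exact match, and any stretch that differs from the element by a base or more stays in lower case:
HSPA5: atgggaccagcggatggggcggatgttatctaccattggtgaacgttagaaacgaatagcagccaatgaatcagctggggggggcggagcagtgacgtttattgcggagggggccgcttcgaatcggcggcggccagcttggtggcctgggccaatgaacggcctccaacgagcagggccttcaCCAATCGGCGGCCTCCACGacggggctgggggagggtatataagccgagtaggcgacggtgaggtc

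The other matches are given so that promoters whose genes moved in different directions can be set side by side, each on the strand of its gene with 12 bases to either side of the match. Capitals mark the match, which reads in reverse complement in the second HSP90B1 window and in CALR.
XBP1, chr22:28800591-28800633, minus strand: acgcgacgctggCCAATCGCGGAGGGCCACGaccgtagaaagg
HSP90B1, chr12:103930204-103930246, plus strand: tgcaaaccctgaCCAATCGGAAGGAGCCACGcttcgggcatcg
HSP90B1, chr12:103930309-103930351, plus strand: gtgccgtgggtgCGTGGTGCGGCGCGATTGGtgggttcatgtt
CALR, chr19:12938372-12938414, plus strand: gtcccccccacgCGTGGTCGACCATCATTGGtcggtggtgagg
CANX, chr5:179698766-179698808, plus strand: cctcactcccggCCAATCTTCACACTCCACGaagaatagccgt
PDIA6, chr2:10812841-10812883, minus strand: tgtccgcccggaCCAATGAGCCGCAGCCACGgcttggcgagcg

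The second form of the element, ATTGG, then 1 base of any kind, then CCACG, on both strands, was found for HYOU1, SDF2L1 and HERPUD1, for 0.0696% of all genes, and in 0.0541% of all promoters. HYOU1 holds 2 matches. Both HYOU1 windows and the SDF2L1 window carry the reverse complement.
HYOU1, chr11:119057368-119057402, minus strand: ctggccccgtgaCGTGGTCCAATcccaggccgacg
HYOU1, chr11:119057262-119057296, minus strand: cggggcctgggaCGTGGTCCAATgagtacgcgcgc
SDF2L1, chr22:21642102-21642136, plus strand: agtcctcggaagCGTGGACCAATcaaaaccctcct
HERPUD1, chr16:56932013-56932047, plus strand: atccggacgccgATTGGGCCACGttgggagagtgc
The shorter word TGACGTGG, known as the unfolded protein response element, was found for HYOU1, where it overlaps the first of these matches, and for DNAJC10, SSR3 and KDELR3, for 0.927% of all genes, and in 0.729% of all promoters. A match describes the letters of the promoter and does not show that a factor binds there. A gene without an exact match is not shown to lack the element, since variants and more distant bases were not searched.

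The processed values of replicates were alike, and no measure of RNA or hybridisation quality was read. Correlations across genes between replicates of a group were 0.9976 to 0.9992. The median log2 value of an array was 5.15 to 5.38, and these medians differed between groups, as the centring described below shows. VIM, a marker of mesenchymal cells, read 14.80 to 14.90 as group means, while ESR1 (3.08 to 3.15) and CDH1 (2.05 to 2.12), 2 of 9 luminal markers, and the leukocyte markers PTPRC, CD14, CD3E and LYZ (1.68 to 2.67) lay far below the median gene at 7.06. Of 5 fibroblast markers COL1A1 read 6.10 to 6.31, and COL1A2, COL3A1, DCN and LUM read 2.24 to 3.25. In every comparison with DMSO, 0 of the 5 fibroblast and 0 of the 4 measured leukocyte markers passed the test. Of 7 basal and mesenchymal markers, 4 fell with both drugs (-1.03 to -1.63), 5 fell with SAHA (-0.80 to -2.11) and 0 passed with pargyline; of the 9 luminal markers, 4 fell with both drugs, 4 fell and 1 rose with SAHA, and 1 fell with pargyline. The luminal markers ERBB2, GATA3 and EPCAM were above the median gene with DMSO (8.28, 9.23 and 8.42) and fell with both drugs (-3.22, -3.48 and -3.15) and with SAHA (-3.09, -2.96 and -2.48), and EPCAM fell with pargyline (-1.32). Their part in the results below was not tested. Of the 33 measured genes of the list, 32 lay at or above the median gene; ERN1, at a mean of 2.12, was the exception, so its probe set gives little information.

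Changes are log2 fold changes with their standard errors from 1 limma model of all 12 arrays (n = 3 arrays per group). A gene rose or fell where the Benjamini-Hochberg adjusted p over all genes was under 0.05. The 3 comparisons with DMSO share the same 3 DMSO arrays, so their values are set side by side and not taken as independent. In RNA from bulk samples, fewer cells of a kind and less RNA per cell cannot be told apart.

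With both drugs, 18 of the 33 genes rose, 8 fell and 7 did not pass, while 24.3% of all genes rose and 24.0% fell, 48.3% in all. With SAHA alone, 11 rose and 9 fell, beside 23.0% of all genes that rose and 23.1% that fell. With pargyline alone, 10 rose and 0 fell, beside 8.48% and 7.45% of all genes. The median change over the 33 genes was 0.37 with both drugs, 0.14 with SAHA and 0.12 with pargyline, against -0.01, 0.00 and -0.02 over all genes. Bright genes pass more often: among the 5982 genes at or above the median gene, a comparison set chosen after the values were seen, 36.7% rose and 38.9% fell with both drugs, 35.3% rose and 37.9% fell with SAHA, and 13.5% rose and 13.0% fell with pargyline. The SAHA counts of the list did not exceed that background in either direction. Groups did not overlap for 26 of the 33 genes with both drugs, 22 with SAHA and 16 with pargyline, against 66.0%, 52.9% and 30.8% of all genes.

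**Figure D1:**
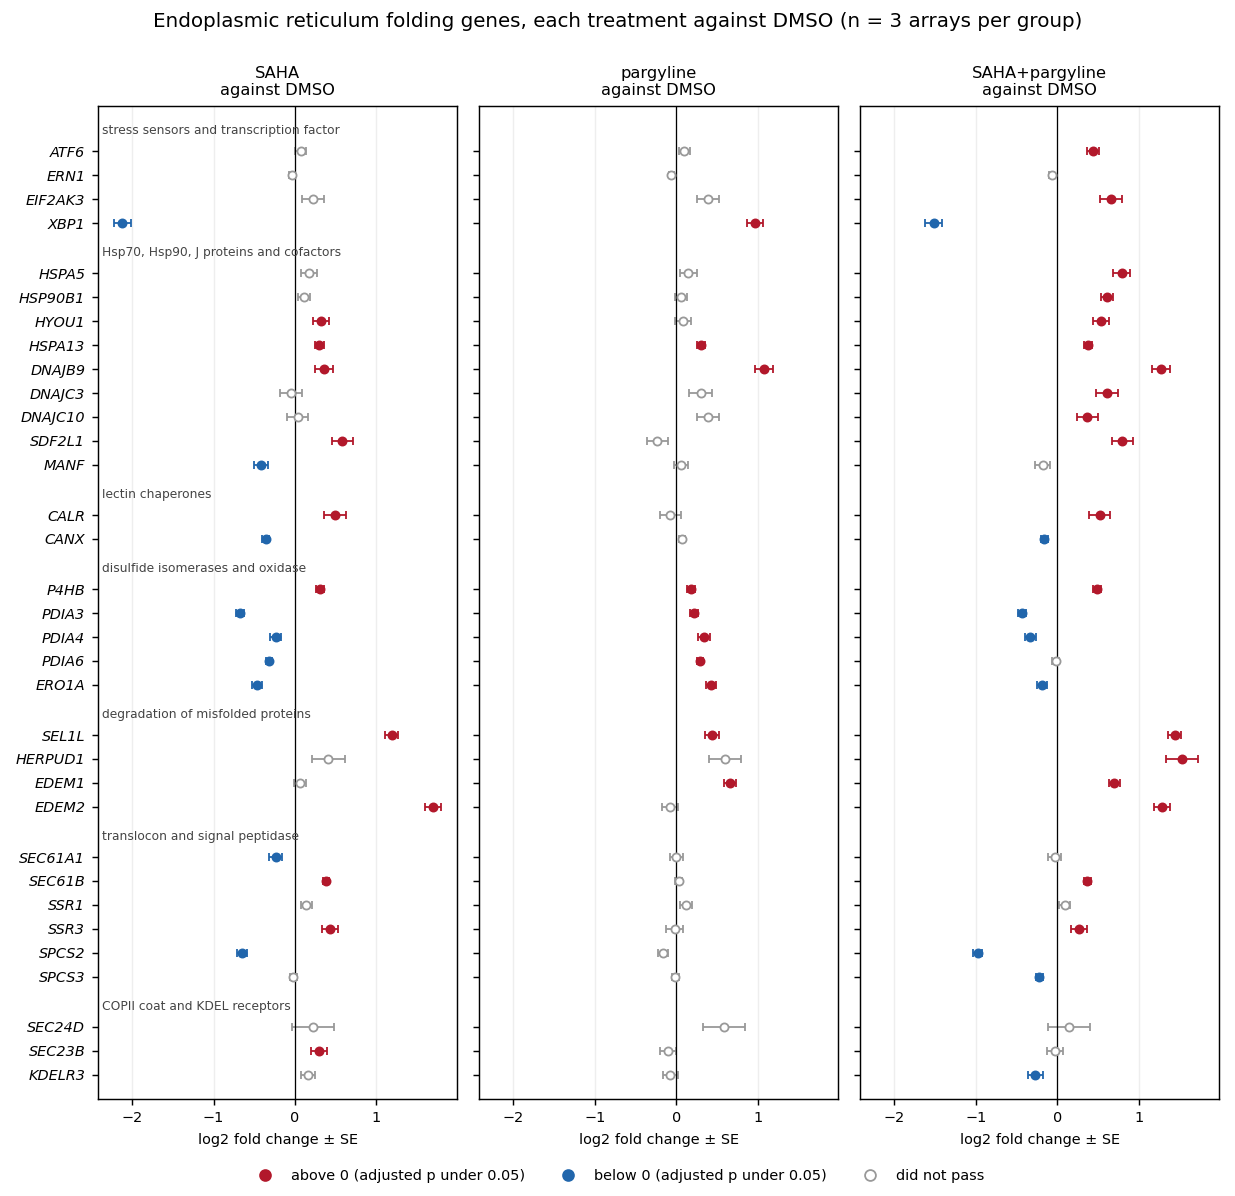
Log2 fold change (x axis, ± SE) of each of the 33 measured genes (y axis, grouped by role) in 3 panels, SAHA, pargyline and their combination, each against DMSO, 3 arrays per group. Filled points passed an adjusted p under 0.05. XBP1 lies at -2.12 with SAHA and 0.97 with pargyline, all 5 disulfide genes lie above 0 with pargyline, and all 4 degradation genes lie above 0 with both drugs.

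Among the sensors, ATF6 and EIF2AK3 rose with both drugs together, and XBP1 moved in opposite directions with the 2 drugs. ATF6, the membrane-bound transcription factor that is cut free in the Golgi, read 10.33, 10.08 and 10.14 with SAHA and pargyline, 9.86, 9.74 and 9.84 with SAHA, and 9.82, 9.90 and 9.83 with pargyline, against 9.71, 9.87 and 9.66 with DMSO. The 3 arrays with both drugs were the highest of the 12, and the other 9 overlapped. ATF6 rose by 0.44 ± 0.07 with both drugs against DMSO (adjusted p = 0.000606), and was higher with both drugs than with SAHA (0.37 ± 0.07, adjusted p = 0.00861) and than with pargyline (0.34 ± 0.07, adjusted p = 0.00355). Neither drug alone passed (0.07 ± 0.07 with SAHA and 0.10 ± 0.07 with pargyline). A second ATF6 probe set rose with both drugs against DMSO (0.42 ± 0.08) and against SAHA (0.38 ± 0.08), but did not pass against pargyline (0.17 ± 0.08, adjusted p = 0.135).

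EIF2AK3, the kinase PERK, read 10.38, 10 and 9.90 with both drugs, 9.60, 9.57 and 9.76 with SAHA, and 9.77, 9.93 and 9.76 with pargyline, against 9.36, 9.24 and 9.68 with DMSO. All arrays of both drugs lay above all DMSO arrays, but 1 pargyline array, at 9.93, lay among those of both drugs. The rise with both drugs was 0.66 ± 0.14 (adjusted p = 0.00272). The differences from SAHA (0.45 ± 0.14, adjusted p = 0.0602) and from pargyline (0.27 ± 0.14, adjusted p = 0.159) did not pass. ERN1, which encodes the RNase and kinase IRE1, read 2.09 to 2.16 as group means and did not pass in any comparison.

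XBP1, the transcription factor whose messenger RNA IRE1 splices, showed the largest absolute change of the list with SAHA. It read 7.43, 7.60 and 7.81 with both drugs, 6.92, 6.95 and 7.17 with SAHA, and 10.01, 10.12 and 10.17 with pargyline, against 9.05, 9.22 and 9.13 with DMSO. The 4 groups did not overlap, in the order pargyline, DMSO, both drugs and SAHA from high to low. XBP1 fell with SAHA to 0.231 of the DMSO level (-2.12 ± 0.10, adjusted p = 1.67e-07) and with both drugs to 0.349 (-1.52 ± 0.10, adjusted p = 1.1e-06), and rose 1.95-fold with pargyline (0.97 ± 0.10, adjusted p = 0.000389). Both drugs together left XBP1 0.60 ± 0.10 above SAHA alone (adjusted p = 0.00409) and below pargyline alone (-2.48 ± 0.10). The interaction, the change with both drugs minus the sum of the single-drug changes, did not pass (-0.37 ± 0.14, adjusted p = 0.216).

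**Figure D2:**
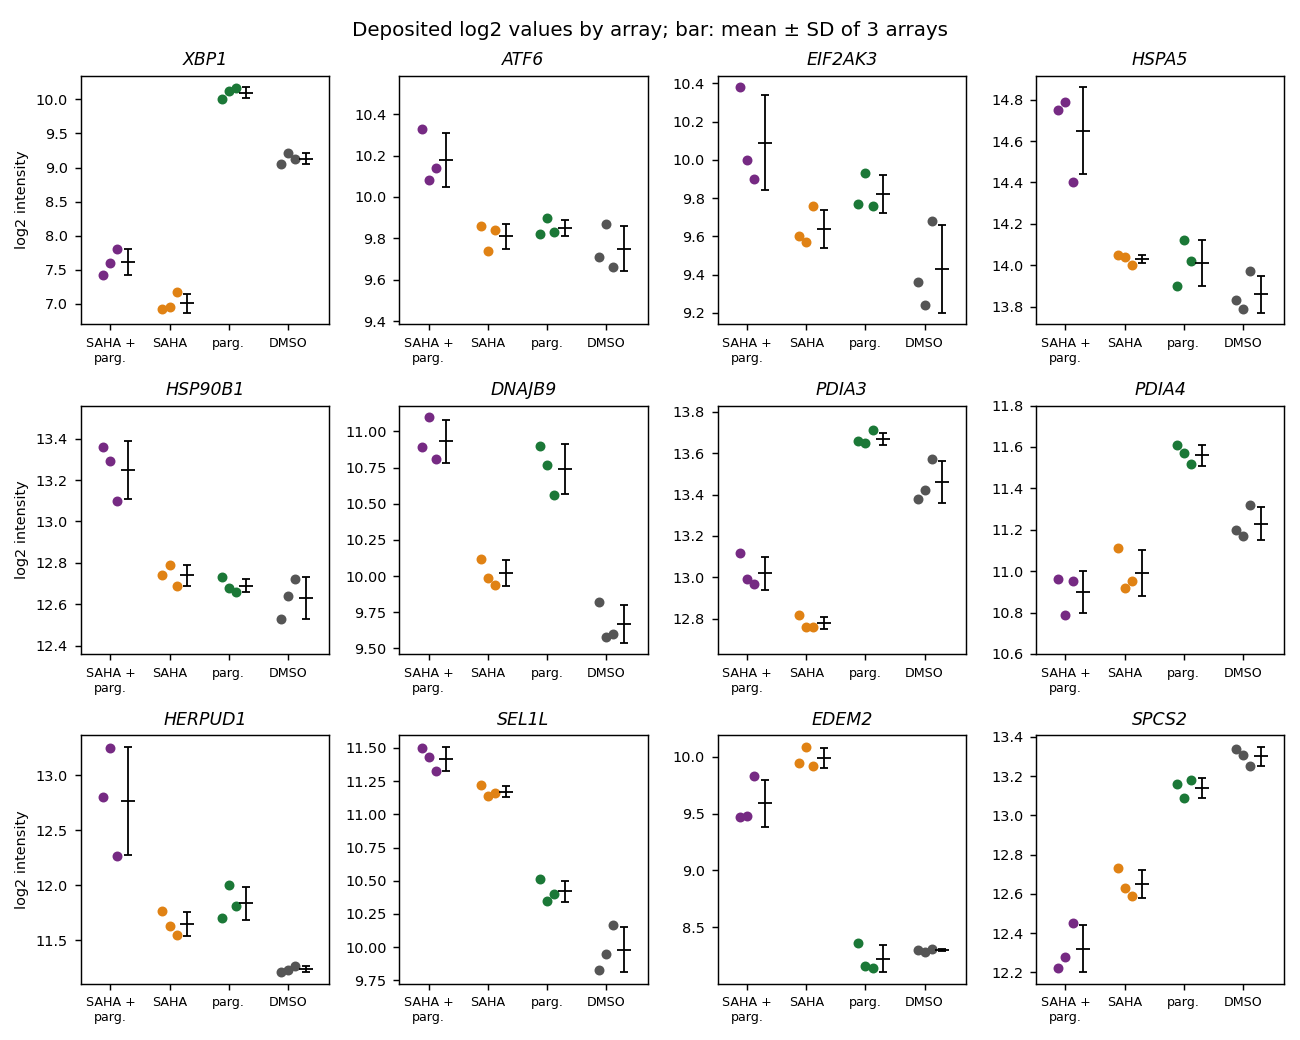
Deposited log2 intensity (y axis) of 12 genes on every array, by group (x axis), with bars for the mean ± SD of 3 arrays; each panel has its own scale. XBP1 separates into 4 levels, HSPA5, HSP90B1, HERPUD1 and ATF6 are highest in the 3 replicates given both drugs, and PDIA3 and PDIA4 are highest with pargyline.

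The Hsp70, Hsp90 and J-protein group rose with both drugs: 8 of 9 measured genes rose, 0 fell, and MANF did not pass. With SAHA 4 rose and 1 fell, and with pargyline 2 rose and 0 fell. The group's median change was 0.61 with both drugs, 0.17 with SAHA and 0.15 with pargyline. Of all genes, 24.3% rose and 24.0% fell with both drugs, 23.0% and 23.1% with SAHA, and 8.48% and 7.45% with pargyline. Among genes at or above the median gene these shares were 36.7% and 38.9%, 35.3% and 37.9%, and 13.5% and 13.0%. They stand beside the counts of the other roles below as well.

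HSPA5, which encodes BiP, the Hsp70 of the endoplasmic reticulum, read 14.75, 14.79 and 14.40 with both drugs, 14.05, 14.04 and 14.00 with SAHA, and 13.90, 14.12 and 14.02 with pargyline, against 13.83, 13.79 and 13.97 with DMSO. The 3 arrays with both drugs stood above the other 9, although the third of them was nearer to the rest. The change with both drugs was 1.72-fold against DMSO (0.79 ± 0.10, adjusted p = 8.32e-05), 1.53-fold against SAHA (0.62 ± 0.10, adjusted p = 0.00329) and 1.55-fold against pargyline (0.64 ± 0.10, adjusted p = 0.000407). SAHA alone gave 0.17 ± 0.10 (adjusted p = 0.225) and pargyline alone 0.15 ± 0.10 (adjusted p = 0.407). The interaction of 0.47 ± 0.14 did not pass (adjusted p = 0.113); without the third replicate given both drugs it was 0.59 with an adjusted p of 0.0112.

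HSP90B1 encodes GRP94, the Hsp90 of the endoplasmic reticulum. It read 13.36, 13.29 and 13.10 with both drugs, 12.74, 12.79 and 12.69 with SAHA, and 12.73, 12.68 and 12.66 with pargyline, against 12.53, 12.64 and 12.72 with DMSO. Again the 3 arrays with both drugs stood above all others. HSP90B1 was 0.61 ± 0.07 higher with both drugs than with DMSO (adjusted p = 3.72e-05), 0.51 ± 0.07 higher than with SAHA and 0.56 ± 0.07 higher than with pargyline. Its interaction, 0.45 ± 0.10 (adjusted p = 0.0373), was the only one of the list above 0 that passed, where 1.28% of all genes passed above 0. That call was lost without any single array other than DMSO replicate 1 and the third replicate given both drugs (0.40 to 0.48, adjusted p 0.0602 to 0.0928), and with the replicate number as a block (adjusted p = 0.0516). Both HSP90B1 probe sets read here are of a type that can bind related transcripts. The dimmer of them gave 0.14 ± 0.17 with both drugs against DMSO (adjusted p = 0.585). Another 2 probe sets are listed for several genes, HSP90B1 among them, and were not read.

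DNAJB9, a J protein that brings BiP to clients and to IRE1, rose with each treatment. It read 10.89, 11.10 and 10.81 with both drugs, 10.12, 9.99 and 9.94 with SAHA, and 10.90, 10.77 and 10.56 with pargyline, against 9.82, 9.58 and 9.60 with DMSO. The arrays with both drugs overlapped those with pargyline, and these 6 lay above all others. DNAJB9 rose 2.41-fold with both drugs (1.27 ± 0.11, adjusted p = 5.52e-06) and 2.11-fold with pargyline (1.08 ± 0.11, adjusted p = 0.000318). Its rise with SAHA was 0.35 ± 0.11 (adjusted p = 0.0226) and was lost without DMSO replicate 2, DMSO replicate 3 or SAHA replicate 1 (0.30 to 0.32, adjusted p up to 0.0811).

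Other BiP partners differed in which drug moved them. SDF2L1, a cofactor of J proteins, rose with both drugs (0.80 ± 0.13) and with SAHA (0.58 ± 0.13) but gave -0.23 ± 0.13 with pargyline (adjusted p = 0.282). HYOU1, the nucleotide exchange factor GRP170, rose with both drugs (0.54 ± 0.10) and with SAHA (0.32 ± 0.10, adjusted p = 0.0245), the second being lost without DMSO replicates 2 or 3 or SAHA replicates 1 or 2 (0.25 to 0.31, adjusted p up to 0.0954). HSPA13, another Hsp70 of the secretory pathway, rose by 0.38 ± 0.05 with both drugs, 0.30 ± 0.05 with SAHA and 0.31 ± 0.05 with pargyline; its second probe set rose with SAHA (0.56 ± 0.07) and gave 0.11 ± 0.07 with both drugs (adjusted p = 0.226) and 0.04 ± 0.07 with pargyline (adjusted p = 0.771).

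DNAJC3, a J protein also known as P58IPK, rose with both drugs against DMSO (0.61 ± 0.14, adjusted p = 0.00374) and against SAHA (0.65 ± 0.14, adjusted p = 0.0106), and did not pass with either drug alone. DNAJC10, a J protein with disulfide reductase activity, gave 0.37 ± 0.13 with both drugs (adjusted p = 0.0446), a call lost without any 1 of 5 arrays, DMSO replicates 1 and 2 and each replicate given both drugs (0.30 to 0.41, adjusted p up to 0.146). MANF, a secreted stress-induced BiP cofactor, fell with SAHA (-0.42 ± 0.09, adjusted p = 0.00402) and gave 0.06 ± 0.09 with pargyline and -0.18 ± 0.09 with both drugs.

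The lectin chaperones, which hold glycoproteins during folding, went opposite ways. Calreticulin (CALR), the soluble form, rose with SAHA (0.49 ± 0.13, adjusted p = 0.00853) and with both drugs (0.52 ± 0.13, adjusted p = 0.00574), and gave -0.07 ± 0.13 with pargyline. Calnexin (CANX), the membrane form, fell with SAHA (-0.36 ± 0.04, adjusted p = 2.9e-05) and with both drugs (-0.16 ± 0.04, adjusted p = 0.00674), and gave 0.07 ± 0.04 with pargyline. CALR read 12.36 to 12.75 with both drugs and 12.25 to 12.65 with SAHA, against 11.97 to 12.07 with DMSO. CANX read 13.76 to 13.80 with both drugs and 13.52 to 13.65 with SAHA, against 13.90 to 13.96 with DMSO. Both carry the stress element in the promoter windows printed above. CALR was read by a probe set that can bind related transcripts. Its 2 further probe sets also rose with SAHA. The brighter is of that same type (0.62 ± 0.14), and the other is not but is much dimmer (0.87 ± 0.21, mean log2 value 7.8). The smaller fall of CANX with both drugs was not seen in 1 of its 2 further probe sets (-0.05 ± 0.11, adjusted p = 0.748).

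The disulfide isomerases and their oxidase split the drugs. With pargyline all 5 measured genes rose in the probe set used, by 0.18 to 0.43. With SAHA 4 fell and P4HB rose, and with both drugs 3 fell, 1 rose and PDIA6 did not pass. PDIA3, the isomerase that works with the lectin chaperones, read 13.12, 12.99 and 12.97 with both drugs, 12.82, 12.76 and 12.76 with SAHA, and 13.66, 13.65 and 13.71 with pargyline, against 13.38, 13.42 and 13.57 with DMSO. Its 4 groups did not overlap, and stood in the same order as those of XBP1. PDIA3 fell with SAHA (-0.68 ± 0.05, adjusted p = 4.56e-06) and with both drugs (-0.43 ± 0.05, adjusted p = 8.09e-05), and rose with pargyline (0.22 ± 0.05, adjusted p = 0.0252).

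PDIA4, an isomerase also known as ERp72, read 10.96, 10.79 and 10.95 with both drugs, 11.11, 10.92 and 10.95 with SAHA, and 11.61, 11.57 and 11.52 with pargyline, against 11.20, 11.17 and 11.32 with DMSO. The pargyline arrays were the highest, and those with both drugs and with SAHA overlapped below DMSO. It rose with pargyline (0.34 ± 0.07, adjusted p = 0.00858) and fell with both drugs (-0.33 ± 0.07, adjusted p = 0.00197); its fall with SAHA (-0.24 ± 0.07, adjusted p = 0.0149) was lost without DMSO replicate 3, SAHA replicate 2 or SAHA replicate 3 (-0.19 to -0.21, adjusted p up to 0.0605). The interaction of -0.43 ± 0.09 passed (adjusted p = 0.0393), where 2.44% of all genes passed below 0, and it was lost without any single array other than DMSO replicate 3 and the third replicate given both drugs (-0.37 to -0.47, adjusted p 0.054 to 0.099), and when arrays were centred on their medians (-0.35, adjusted p = 0.0546). A second PDIA4 probe set had the same signs and did not pass, with -0.16 ± 0.09 for both drugs, -0.19 ± 0.09 for SAHA and 0.27 ± 0.09 for pargyline.

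ERO1A, the oxidase that recharges the isomerases, fell with SAHA (-0.47 ± 0.06, adjusted p = 0.000135) and rose with pargyline (0.43 ± 0.06, adjusted p = 0.00195). Its fall with both drugs (-0.19 ± 0.06, adjusted p = 0.0319) was lost without any 1 of the 6 arrays compared (-0.16 to -0.20, adjusted p 0.0511 to 0.111). PDIA6 fell with SAHA (-0.32 ± 0.04, adjusted p = 7.1e-05), rose with pargyline (0.29 ± 0.04, adjusted p = 0.00125) and gave -0.02 ± 0.04 with both drugs. The PDIA6 probe set used can bind related transcripts. A further one of nearly the same brightness did not pass with pargyline (0.14 ± 0.04, adjusted p = 0.0665), while the others rose (0.24 ± 0.05 and 0.27 ± 0.05). P4HB, the founding isomerase, rose with both drugs (0.49 ± 0.05, adjusted p = 2.65e-05) and with SAHA (0.31 ± 0.05, adjusted p = 0.000745). Its rise with pargyline (0.18 ± 0.05, adjusted p = 0.049) was lost without any 1 of the 6 arrays (0.14 to 0.20, adjusted p 0.071 to 0.146), and that of PDIA3 without any but DMSO replicate 3 (0.18 to 0.23, adjusted p up to 0.0963).

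The pargyline result also rests on the scaling. When each array was centred on its median over all probe sets, the median of all genes with pargyline moved to -0.15 and the genes that passed split into 872 higher and 6168 lower, in place of 1014 higher and 891 lower. Then P4HB (0.05, adjusted p = 0.57) and PDIA3 (0.09, adjusted p = 0.235) did not pass, ERN1, SDF2L1, SPCS2 and SPCS3 fell (-0.14 to -0.36), and the median of the 33 genes was -0.01. PDIA4, PDIA6 and ERO1A still rose. The same centring moved the split to 2503 higher and 7519 lower with both drugs, in place of 2903 and 2872, and to 2385 higher and 4070 lower with SAHA, in place of 2754 and 2768; 16 genes of the list then rose and 11 fell with both drugs.

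The 4 measured genes of degradation all rose with both drugs, with a median of 1.37. With SAHA 2 rose and 0 fell, and with pargyline 2 rose and 0 fell. The 4 genes did not follow 1 pattern: EDEM2 rose with SAHA, EDEM1 with pargyline and SEL1L with each drug, while HERPUD1 passed with both drugs and with neither alone.

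HERPUD1 encodes a membrane protein of the degradation complex and is a standard stress target. It read 12.80, 13.25 and 12.27 with both drugs, 11.77, 11.63 and 11.55 with SAHA, and 11.70, 12 and 11.81 with pargyline, against 11.21, 11.23 and 11.27 with DMSO. The replicates given both drugs stood above the other 9 but were spread over almost 1 log2 unit, the widest range of any gene of the list in any group. HERPUD1 rose 2.90-fold with both drugs (1.53 ± 0.20, adjusted p = 9.63e-05) and was higher than with SAHA (1.12 ± 0.20, adjusted p = 0.00506) and than with pargyline (0.94 ± 0.20, adjusted p = 0.00282). Alone, SAHA gave 0.41 ± 0.20 (adjusted p = 0.13) and pargyline 0.60 ± 0.20 (adjusted p = 0.0737), and all arrays of either drug lay above the DMSO arrays. In a fit of the 6 arrays of both drugs and SAHA alone, the first of these differences missed the threshold (adjusted p = 0.0561).

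SEL1L, the scaffold of the HRD1 ubiquitin ligase, read 11.50, 11.43 and 11.33 with both drugs, 11.22, 11.14 and 11.16 with SAHA, and 10.51, 10.35 and 10.40 with pargyline, against 9.83, 9.95 and 10.17 with DMSO. The 4 groups did not overlap, and those with SAHA were the upper pair. SEL1L rose 2.71-fold with both drugs (1.44 ± 0.08, adjusted p = 3.99e-07), 2.28-fold with SAHA (1.19 ± 0.08, adjusted p = 1.63e-06) and 1.35-fold with pargyline (0.44 ± 0.08, adjusted p = 0.00662). The difference between both drugs and SAHA did not pass (0.25 ± 0.08, adjusted p = 0.0664), whereas in each of 3 further SEL1L probe sets it did (0.54 to 0.83). These 3 also rose with both drugs and with SAHA, and 1 of them rose with pargyline.

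EDEM2, a lectin-like factor that helps select glycoproteins for degradation, read 9.47, 9.48 and 9.83 with both drugs, 9.95, 10.09 and 9.92 with SAHA, and 8.36, 8.16 and 8.14 with pargyline, against 8.30, 8.28 and 8.31 with DMSO. It rose 3.22-fold with SAHA (1.69 ± 0.10, adjusted p = 5.48e-07) and 2.45-fold with both drugs (1.29 ± 0.10, adjusted p = 2.5e-06), and gave -0.08 ± 0.10 with pargyline. The level with both drugs was below that with SAHA (-0.39 ± 0.10, adjusted p = 0.0229), a call lost without SAHA replicates 1 or 2 or the first or second replicate given both drugs (-0.33 to -0.42, adjusted p up to 0.0904). EDEM1, its relative, rose with pargyline (0.66 ± 0.07, adjusted p = 0.000568) and with both drugs (0.70 ± 0.07, adjusted p = 2.34e-05), and gave 0.06 ± 0.07 with SAHA. EDEM1 read 11.61 to 11.78 with both drugs, 10.92 to 11.23 with SAHA and 11.65 to 11.70 with pargyline, against 10.98 to 11.08 with DMSO.

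Of the 6 translocon and signal peptidase genes, 2 rose and 2 fell with both drugs, 2 rose and 2 fell with SAHA, and 0 passed with pargyline. These counts did not exceed the shares among genes at or above the median gene. SPCS2, a subunit of the signal peptidase that trims leader peptides, read 12.22, 12.28 and 12.45 with both drugs, 12.73, 12.63 and 12.59 with SAHA, and 13.16, 13.09 and 13.18 with pargyline, against 13.34, 13.31 and 13.25 with DMSO. Its groups stood in steps with no overlap. SPCS2 fell to 0.506 of the DMSO level with both drugs (-0.98 ± 0.06, adjusted p = 7.15e-07) and to 0.637 with SAHA (-0.65 ± 0.06, adjusted p = 1.31e-05). Both drugs gave a lower level than SAHA alone (-0.33 ± 0.06, adjusted p = 0.00609) in the probe set used, but not in the second probe set (-0.03).

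SPCS3, another subunit, fell with both drugs (-0.22 ± 0.04, adjusted p = 0.0015) and gave -0.02 ± 0.04 with SAHA and -0.01 ± 0.04 with pargyline; its level with both drugs was below that with either drug by the test (-0.20 ± 0.04 each). A further SPCS3 probe set also fell with SAHA alone (-0.36 ± 0.05, adjusted p = 0.00017), and gave -0.53 ± 0.05 with both drugs. SEC61B, the small channel subunit, rose with SAHA (0.38 ± 0.04, adjusted p = 5.34e-05) and with both drugs (0.37 ± 0.04, adjusted p = 5.62e-05). SEC61A1, the channel itself, gave -0.24 ± 0.08 with SAHA (adjusted p = 0.0243), lost without DMSO replicates 1 or 2 or SAHA replicates 2 or 3 (-0.17 to -0.25, adjusted p up to 0.0877), and -0.03 ± 0.08 with both drugs. SSR3, a subunit of the translocon-associated complex, rose with SAHA (0.43 ± 0.10, adjusted p = 0.0042) and gave 0.27 ± 0.10 with both drugs (adjusted p = 0.0464), the second being lost without DMSO replicates 1 or 3 or any 1 replicate given both drugs (0.21 to 0.28, adjusted p up to 0.156). SSR1, another subunit of that complex, depended on the probe set. The probe set used did not pass with any treatment (0.09 to 0.14), but of 3 further ones 2 rose with both drugs (0.38 ± 0.08, adjusted p = 0.00211, and 0.13 ± 0.05, adjusted p = 0.0435) and with pargyline (0.28 ± 0.08, adjusted p = 0.0368, and 0.18 ± 0.05, adjusted p = 0.0326).

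Of the 3 measured genes of vesicle coat and retrieval, SEC24D did not pass in any comparison and was spread over 7.67 to 8.62 within the pargyline group. SEC23B, the coat subunit that activates the SAR1 GTPase, gave 0.29 ± 0.10 with SAHA (adjusted p = 0.0342), which neither further probe set passed (-0.01 ± 0.12 and 0.25 ± 0.10) and which was lost without DMSO replicates 1 or 2 or SAHA replicates 2 or 3 (0.22 to 0.31, adjusted p up to 0.13). KDELR3, a receptor that returns chaperones from the Golgi, gave -0.27 ± 0.09 with both drugs (adjusted p = 0.0363), lost without any 1 DMSO array or the first or second replicate given both drugs (-0.16 to -0.30, adjusted p up to 0.118).

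The direct comparisons of both drugs with each drug show which genes went beyond the single treatments. Against SAHA, 13 genes of the list were higher with both drugs and 4 lower, beside 7.88% and 8.71% of all genes. Of these 17 calls only 8, all of them higher, kept their side of the threshold in every setting run, further probe sets apart. Against pargyline, 12 genes of the list were higher and 8 lower, beside 23.9% and 23.6% of all genes, 47.5% in all. XBP1, CANX, PDIA3, PDIA6 and ERO1A were higher with both drugs than with SAHA and lower than with pargyline, so their level lay between those of the single drugs. Among genes at or above the median gene the shares were 12.6% and 14.9% against SAHA and 35.7% and 37.8% against pargyline. The medians over the list were 0.21 against SAHA and 0.07 against pargyline. Groups did not overlap for 24 of the 33 genes against SAHA, where 37.6% of all genes did not overlap, and for 23 against pargyline, where 53.2% did not.

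In the probe set used, ATF6, HSPA5, HSP90B1, P4HB and HERPUD1 were higher with both drugs than with SAHA, with pargyline and with DMSO, each by the test. SPCS2 and SPCS3 were lower than with each. The P4HB difference from SAHA (0.18 ± 0.05, adjusted p = 0.0416) was lost without SAHA replicates 2 or 3 or any 1 replicate given both drugs (0.14 to 0.20, adjusted p up to 0.144). Those of HERPUD1, SPCS2 and SPCS3 from SAHA were each lost in another setting. The dimmer HSP90B1 probe set did not pass against SAHA (0.28 ± 0.17, adjusted p = 0.355) or pargyline (0.16 ± 0.17, adjusted p = 0.535). Nor did the second ATF6 probe set against pargyline or the second SPCS2 probe set against SAHA. The share of all genes that the test placed above or below all 3 other groups was not counted. The 3 arrays with both drugs lay above the other 9 for 6 genes of the list, ATF6, HSPA5, HSP90B1, P4HB, HERPUD1 and SEL1L, and for 6.95% of all genes.

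Sorted by their calls against DMSO, 7 genes rose with both drugs while neither drug alone passed: ATF6, EIF2AK3, HSPA5, HSP90B1, DNAJC3, DNAJC10 and HERPUD1. Some of these passed with a single drug in another setting. With only the compared groups in the fit HERPUD1 rose with SAHA (adjusted p = 0.00318) and with pargyline (adjusted p = 0.00859), and HSPA5 rose with SAHA (0.17, adjusted p = 0.0493). EIF2AK3 rose with pargyline without DMSO replicate 3 (0.52, adjusted p = 0.0336). ATF6 rose with pargyline in the mean of its probe sets (0.18, adjusted p = 0.0389). The second DNAJC10 probe set rose with pargyline (0.46 ± 0.13, adjusted p = 0.0441), fell with SAHA (-0.42 ± 0.13, adjusted p = 0.0246) and did not pass with both drugs (0.19 ± 0.13, adjusted p = 0.28). A further 6 rose with both drugs and with SAHA but did not pass with pargyline, namely HYOU1, SDF2L1, CALR, EDEM2, SEC61B and SSR3. HSPA13, DNAJB9, P4HB and SEL1L rose with all 3 treatments, and EDEM1 rose with both drugs and pargyline. XBP1, PDIA3, PDIA4, PDIA6 and ERO1A fell with SAHA and rose with pargyline in the probe set used. ERN1, SSR1 and SEC24D passed with none in the probe set used, although 2 further SSR1 probe sets rose with both drugs and with pargyline. How many of all genes show each of these patterns of calls was not counted, so no excess in the list was read from them. A call with both drugs beside a missed threshold with each is not a test of the difference between them, which the direct comparisons above give. The interaction tests whether the combined change departs from the sum of the single ones, and of the 33 genes it passed for HSP90B1 and PDIA4, where 3.72% of all genes passed. Among genes at or above the median gene, 1.76% passed above 0 and 3.56% below 0.

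**Figure D3:**
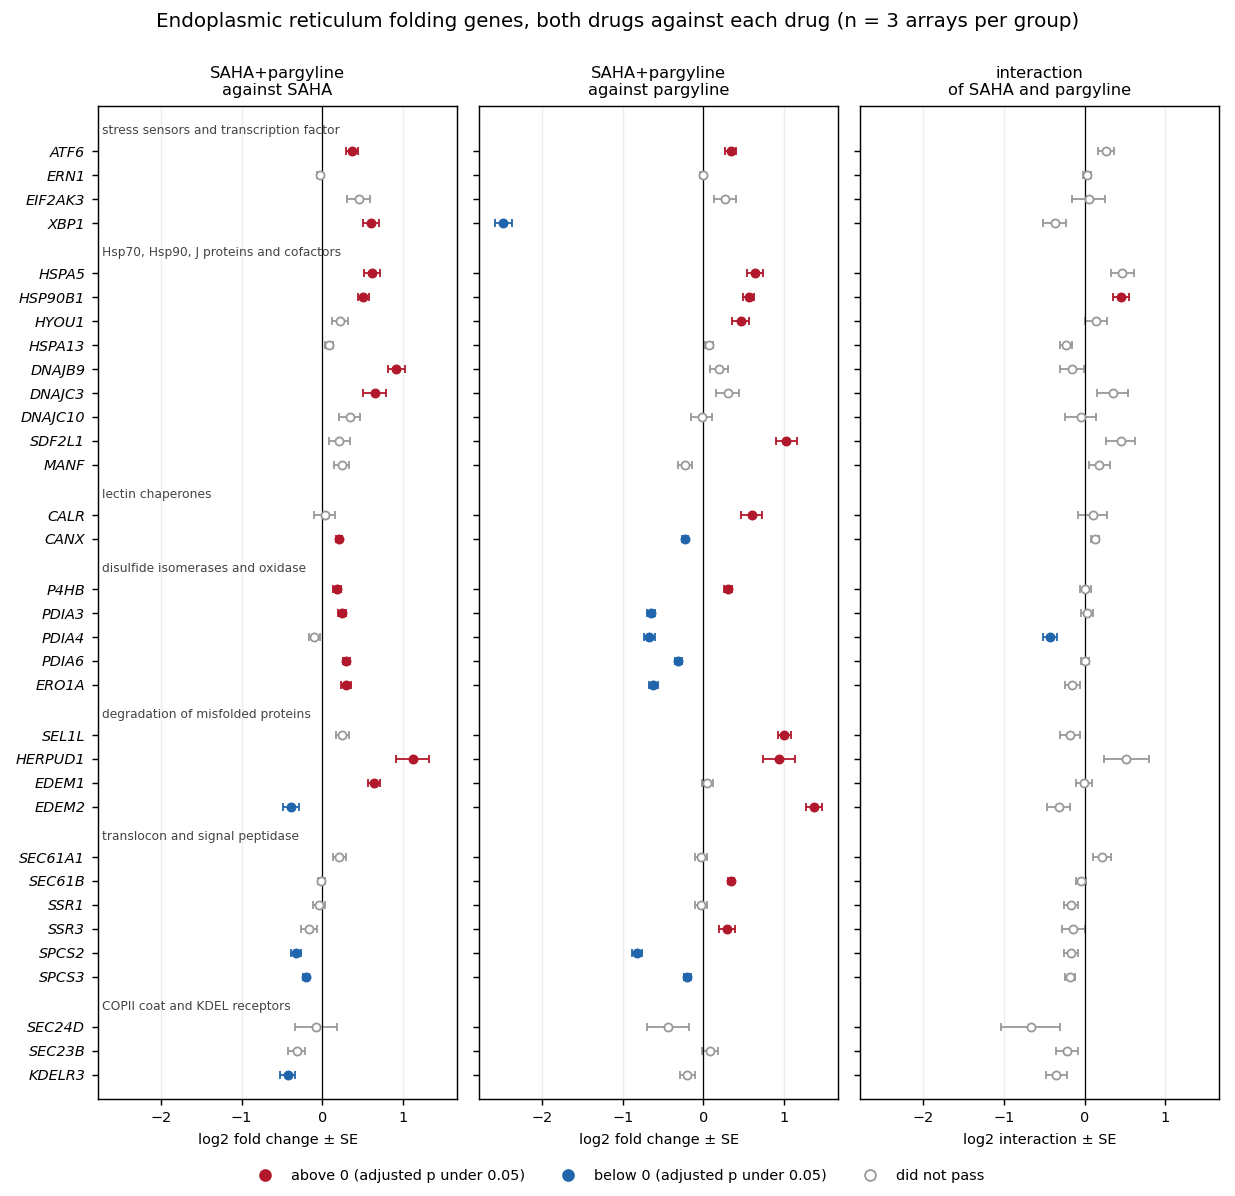
Log2 fold change (x axis, ± SE) of each of the 33 genes (y axis, grouped by role) with both drugs against SAHA and against pargyline, and the interaction, the change with both drugs minus the sum of the single-drug changes, 3 arrays per group. HERPUD1 and DNAJB9 lie highest against SAHA, at 1.12 and 0.92, XBP1 lies at -2.48 against pargyline, and in the interaction HSP90B1 (0.45) and PDIA4 (-0.43) carry filled points.

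SAHA and pargyline set against each other had 7 genes of the list higher with SAHA and 12 lower, beside 23.4% and 22.7% of all genes, or 35.6% and 36.4% of those at or above the median gene, with a median of -0.04. The groups did not overlap for 23 genes of the list, against 50.9% of all genes. XBP1 was lower with SAHA (-3.08 ± 0.10, adjusted p = 2.23e-08), ERO1A (-0.91 ± 0.06), PDIA3 (-0.89 ± 0.05), DNAJB9 (-0.73 ± 0.11), PDIA6 (-0.61 ± 0.04), EDEM1 (-0.59 ± 0.07) and PDIA4 (-0.57 ± 0.07) were lower, and EDEM2 (1.77 ± 0.10), SDF2L1 (0.82 ± 0.13), SEL1L (0.75 ± 0.08) and CALR (0.57 ± 0.13) were higher. HSPA5 (0.02 ± 0.10) and HSP90B1 (0.05 ± 0.07) gave differences smaller than their errors.

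The genes with a stress element in the promoter did not share 1 response. With both drugs HSPA5, HSP90B1 and CALR rose, XBP1 and CANX fell, and PDIA6 did not pass. HYOU1, SDF2L1 and HERPUD1, which carry the second form, all rose with both drugs, by 0.54 to 1.53. With SAHA alone XBP1, CANX and PDIA6 fell, CALR, HYOU1 and SDF2L1 rose, and HSPA5, HSP90B1 and HERPUD1 did not pass.

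Genes of the same pathways outside the list were read from 6 lists with 137 entries, 114 of them measured. With both drugs 46 rose and 26 fell, with SAHA 46 rose and 31 fell, and with pargyline 19 rose and 6 fell, with medians of 0.12, 0.07 and 0.06. Of all genes, 24.3% rose and 24.0% fell with both drugs, 23.0% and 23.1% with SAHA, and 8.48% and 7.45% with pargyline. Among genes at or above the median gene, the shares were 36.7% and 38.9%, 35.3% and 37.9%, and 13.5% and 13.0%. How many of the 114 genes are that bright was not counted, so no excess or deficit was read from these shares. The same shares stand beside the counts of the 6 lists below. Of 22 other folding factors, 8 rose and 6 fell with both drugs, 9 rose and 7 fell with SAHA, and 5 rose and 0 fell with pargyline. DNAJC1, a J protein of the endoplasmic reticulum membrane, rose 7.23-fold with both drugs (2.85 ± 0.11), 4.78-fold with SAHA (2.26 ± 0.11) and 1.65-fold with pargyline (0.72 ± 0.11). FKBP14, a prolyl isomerase, rose with both drugs (2.84 ± 0.15), with SAHA (1.78 ± 0.15) and with pargyline (1.02 ± 0.15). ERO1B, the second oxidase, rose 3.30-fold with pargyline (1.72 ± 0.23). TOR1A, an AAA protein of the lumen, fell with both drugs (-2.71 ± 0.15) and with SAHA (-2.95 ± 0.15).

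Of 17 other degradation genes, 6 rose and 5 fell with both drugs, 7 rose and 7 fell with SAHA, and 0 rose and 2 fell with pargyline. OS9, a lectin that hands glycoproteins to SEL1L, rose with both drugs (1.18 ± 0.08) and with SAHA (0.86 ± 0.08). UBE2J1, the ubiquitin-conjugating enzyme of the membrane, fell with both drugs (-1.49 ± 0.15) and with SAHA (-1.67 ± 0.15), and DERL2, a channel component, fell with both (-0.79 ± 0.05) and with SAHA (-0.84 ± 0.05). Of 23 other translocation and N-glycosylation genes, 6 rose and 6 fell with both drugs, 6 rose and 8 fell with SAHA, and 0 rose and 2 fell with pargyline. STT3A, a catalytic subunit of the oligosaccharyltransferase, fell with both drugs (-0.75 ± 0.08) and with SAHA (-0.98 ± 0.08). Of 23 other traffic genes, 9 rose and 2 fell with both drugs, 10 rose and 2 fell with SAHA, and BET1, a SNARE, alone rose with pargyline (0.50 ± 0.10).

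Of 15 other signalling genes, 8 rose and 5 fell with both drugs, 7 rose and 3 fell with SAHA, and 4 rose and 1 fell with pargyline. WFS1, a membrane protein that dampens ATF6 signalling, rose 7.80-fold with both drugs (2.96 ± 0.13), 7.45-fold with SAHA (2.90 ± 0.13) and 1.71-fold with pargyline (0.77 ± 0.13). NFYC, a subunit of the NF-Y factor that binds CCAAT, fell to 0.353 of the DMSO level with both drugs (-1.50 ± 0.06) and to 0.358 with SAHA (-1.48 ± 0.06), while the NFYB subunit fell with pargyline (-0.55 ± 0.06). Of 14 genes of the PERK and ATF4 output, 9 rose and 2 fell with both drugs, 7 rose and 4 fell with SAHA, and 9 rose and 1 fell with pargyline. CHAC1, a glutathione-degrading enzyme, rose 55.6-fold with both drugs (5.80 ± 0.50), 5.65-fold with SAHA and 5.89-fold with pargyline. ATF3 rose 54.2-fold with both drugs, 25.5-fold with SAHA and 5.24-fold with pargyline. DDIT4, an inhibitor of mTOR signalling, rose by 2.58 ± 0.14 with both drugs, 1.41 ± 0.14 with SAHA and 2.20 ± 0.14 with pargyline. The interaction passed below 0 for DDIT4 (-1.02 ± 0.20, adjusted p = 0.0286) and ATF3 (-1.30 ± 0.28, adjusted p = 0.0377). It passed above 0 for DDIT3 (2.07 ± 0.46, adjusted p = 0.0426). TRIB3, a pseudokinase of the same list, gave -0.65 ± 0.31 with both drugs (adjusted p = 0.114), fell with SAHA (-2.20 ± 0.31) and rose with pargyline (1.17 ± 0.31).

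**Figure D4:**
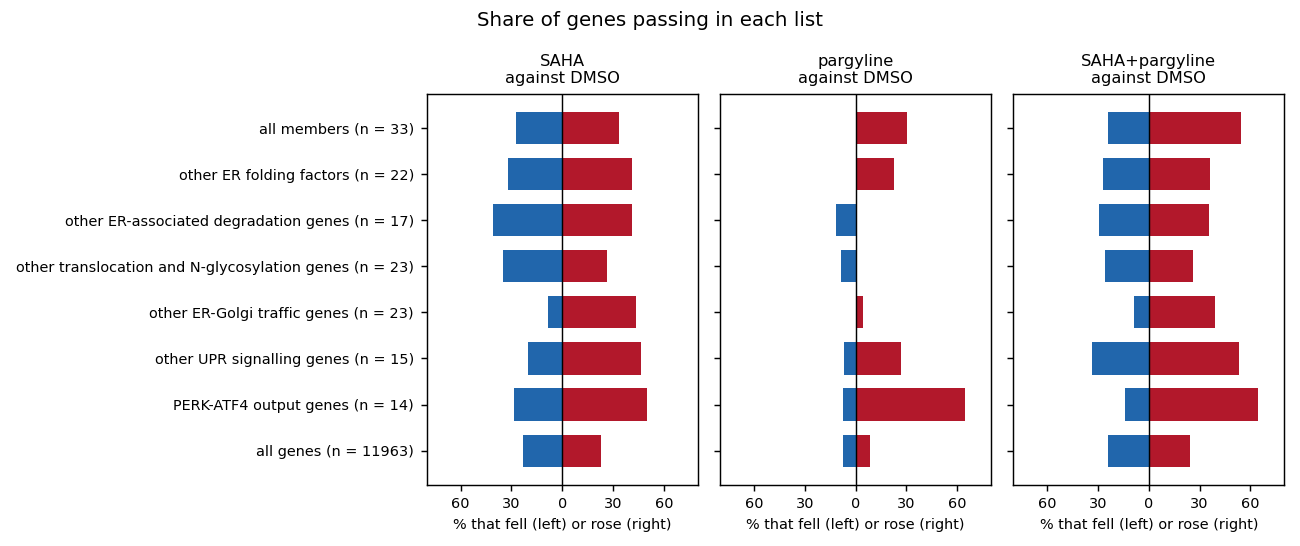
Percent of the measured genes of each list (y axis, with n) that rose (right, red) or fell (left, blue) against DMSO, in a panel for each treatment (x axis, percent), beside all 11963 genes at the bottom. With pargyline 10 of the 33 genes of the list rose and 0 fell, beside 8.48% and 7.45% of all genes; after centring on array medians 4 of the 33 fell.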

How the data were processed

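RNA of 12 MDA-MB-231 samples was hybridised to 1 array each. The deposited unit is log2 intensity, computed by the authors with RMA, per the submitters' processing notes; the software version, and whether the arrays were normalized together, are not given in the sources used here. The values were used as deposited. Among 22277 probe sets there are 62 controls; 19064 name a single gene, 1043 name more than that and 2108 name none. Symbols were updated with the RefSeq gene table, and the probe set with the highest mean was kept for each of 11963 genes; 4310 genes had more than 1.

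Groups follow the sample labels. All 12 arrays entered 1 linear model of group means in limma 3.58.1 under R 4.3.3 (lmFit, eBayes), with 8 residual degrees of freedom and two-sided tests adjusted over all genes. The procedure was tested on simulated data with known changes. The number of arrays limits the precision; the median standard error of a difference was 0.077. The labels call replicates biological without naming separate cultures or dates, so p-values measure the spread between these arrays.

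The genes and pathway lists were chosen with earlier results of these data known. Every measured gene of the list could be named, with values by array for the sensors, XBP1, HSPA5, genes that passed by at least 1 log2 unit against DMSO and others a result turned on. From each pathway list, up to 3 genes with the largest change among those passing in a comparison could be named. Alternatives were quantile normalization, centring on the array median, leaving out genes below the lower tertile (2.79), the mean of probe sets or each further probe set, weights per array, a trended robust prior, a block for the replicate number, the compared groups alone, and leaving out each array. Equally numbered arrays correlated at 0.08 to 0.53 after group means were removed, with a median of 0.14 over 18 pairs. Arrays of different numbers correlated at -0.52 to 0.25, with a median of -0.07 over 36 pairs. Of all arrays, 11 correlated best with their own number. Equally numbered arrays thus shared some variation that the main model leaves out, and its source was not tested. Not every equally numbered pair was above 0.1, so the numbers were not taken as pairing. The replicate block gives the calls with the numbers in the model.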

Additional observations from a re-analysis of the deposited data

Results flagged for a closer look

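For 2 genes of the list, 6.06% of those measured, the effect of SAHA differed with and without pargyline by limma's test of the interaction. Of all genes 3.72% passed this test. Among genes at or above the median gene, 1.76% passed above 0 and 3.56% below 0. No excess in the list was read from this count, and neither call was kept in every setting run. HSP90B1 had an interaction of 0.45 ± 0.10 (log2, SE; adjusted p = 0.0373): SAHA changed it by 0.56 in the presence of pargyline and by 0.11 in its absence. PDIA4 had an interaction of -0.43 ± 0.09 (adjusted p = 0.0393): SAHA changed it by -0.67 in the presence of pargyline and by -0.24 in its absence. Each call was lost without most single arrays, as given with the genes above, that of HSP90B1 also with the replicate block (adjusted p = 0.0516), and in the mean over probe sets HSP90B1 had 0.38 (adjusted p = 0.231) and PDIA4 -0.33 (adjusted p = 0.0923). Groups of 3 arrays were too small for a test of single arrays far from the rest.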

How the results depend on the processing

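Of the calls in the comparisons with DMSO, 15 of 20 with SAHA, 7 of 10 with pargyline and 22 of 26 with both drugs kept their side of the threshold in every setting run, further probe sets apart. By the same rule 8 of 17 calls were kept for both drugs against SAHA, 8 higher and 0 lower. Against pargyline 19 of 20 were kept for both drugs and 16 of 19 for SAHA. For the interaction 0 of 2 were kept. Under centring 4 genes of the list fell with pargyline, and with the compared groups alone 1 gene was lower with both drugs than with SAHA, in place of 4, in a fit of fewer arrays. The interaction passed for 1 gene (0 below 0) under centring, 2 (0 above and 2 below 0, HSPA13 and SEC23B) with the mean of probe sets, 5 (2 above, 3 below) with array weights and 1 (0 below) with a trended robust prior. With the replicate block it passed for 1 gene (PDIA4, 0 above 0), and 25 genes passed with both drugs against DMSO, 20 with SAHA, 10 with pargyline, 20 for both drugs against SAHA, 21 for both against pargyline and 21 for SAHA against pargyline; 11 of 12 arrays correlated best with their own number. Leaving out 1 array gave 0 to 6 passing interactions (0 to 3 above and 0 to 3 below 0), with 6 without SAHA+pargyline replicate 3. The sign of a change differed between probe sets of some genes, where at least 1 of them passed. In no comparison did a further probe set pass in the direction opposite to a call of the probe set used. With the mean of probe sets HSPA13 gave -0.18 for both drugs against SAHA and 0.26 for SAHA against pargyline, and SEC23B -0.23 for both drugs against pargyline. In single further probe sets, SAHA against DMSO gave -0.42 for DNAJC10 and -0.01 for SEC23B, SAHA against pargyline 0.52 for HSPA13, -0.92 for KDELR3, -0.07 for SEC23B and -0.25 for SSR1, both drugs against SAHA -0.45 for HSPA13 and 0.35 for SSR1, and both against pargyline -0.55 for SEC23B. The SEC23B value of -0.01 had a standard error of 0.12, and the KDELR3 probe set, at a mean of 2.58, lies near the dim end of the array. For these differences in sign the cause was not tested. ERN1 lies so near the dim end of the array that a change in it could not be judged.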
